A study of Mus musculus with 6 samples.

Results

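The genes described here encode the netrin-G proteins and their receptors, the netrin-G ligands (NGLs). They are 5 of the 55401 genes counted: Ntng1, Ntng2, Lrrc4, Lrrc4b and Lrrc4c, chosen by name, and all 5 passed the filter on low counts. Their RNA was measured by bulk RNA sequencing of the dorsal hippocampus of 6 WT mice. These were 4-month-old males, wild-type littermates of the Ts65Dn line. Both groups received a bilateral stereotaxic injection into the dorsal dentate gyrus (DG) of a chemically modified antisense oligonucleotide (ASO). In 3 mice it was Snhg11-ASO, directed against the long non-coding RNA Snhg11, and in 3 it was Control-ASO, with the same bases in scrambled order. The injection reached the DG, whereas the libraries hold RNA of the whole dorsal hippocampus. The comparison asked whether these genes differed after the knockdown.

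Netrin-Gs resemble the classical netrins, which guide growing axons, but are tethered to the outer membrane of the axon by a glycosylphosphatidylinositol anchor and do not bind the netrin receptors. Netrin-G1 pairs with NGL-1 and netrin-G2 with NGL-2, transmembrane proteins with leucine-rich repeats that sit on dendrites. NGL-3 binds receptor tyrosine phosphatases of the LAR type instead. In the hippocampus the partners are known for marking layers: netrin-G1 and netrin-G2 lie on different incoming axons, and their NGLs concentrate on the dendritic segments that these axons reach. The transcripts of netrin-Gs on axons from outside the hippocampus remain mainly in distant cell bodies, so that a hippocampal library counts those made by cells within the dissected tissue.

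None of the 5 genes passed the threshold. As CPM (read counts divided by the size of each library after TMM scaling), Ntng1 averaged 64.2% of its Control-ASO mean in the Snhg11-ASO group, Lrrc4c 85.6% and Lrrc4b 86.3%, while Lrrc4 averaged 107% and Ntng2 102%. By the quasi-likelihood test of edgeR, with p adjusted over 19969 genes after Benjamini and Hochberg, 0 of the 5 had an adjusted p under 0.05, as had 0 of all genes tested (0%), and 0 of the 5 had an unadjusted p under 0.05. Over all genes 885 were lower in Snhg11-ASO at an unadjusted p under 0.05 (4.43%) and 734 were higher. DESeq2 also called 0 of the 5, and called 258 genes in all, of which 159 were lower (0.796%). The 5 log2 fold changes had a median of -0.21, beside 0.01 over all genes tested. The groups did not overlap for 2 of the 5 genes, Lrrc4b and Lrrc4c, both lower in Snhg11-ASO. Among all genes, 7.70% were lower without overlap and 7.73% higher.

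**Figure D1:**
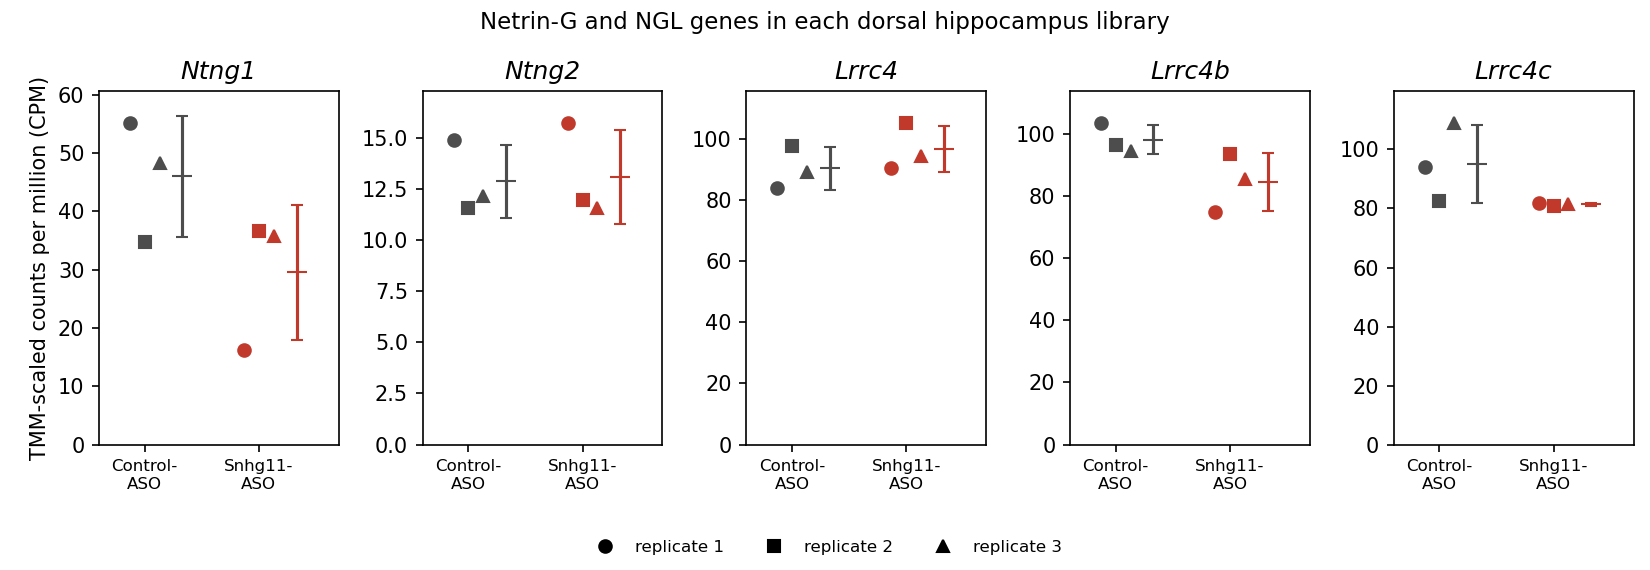
TMM-scaled CPM (y axes, from 0) of each gene in the 3 Control-ASO (grey) and 3 Snhg11-ASO (red) libraries, with marker shapes for replicates and bars for the mean and SD. The Snhg11-ASO points of Lrrc4b and Lrrc4c lie below all their controls, and Ntng1 is lowest in Snhg11-ASO replicate 1, at 16.2 CPM.

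The targeted RNA was low in the treated libraries. The 3 controls held 551, 436 and 209 CPM of Snhg11 and the 3 treated libraries 139, 65.4 and 69.4 CPM, 22.9% of the control mean, with an adjusted p of 0.395 in edgeR's quasi-likelihood test and of 6.2e-05 in DESeq2. The Control-ASO libraries held 28951250 to 34293344 read pairs on genes and the Snhg11-ASO libraries 38556524 to 43997537, so depth differed between the groups without overlap. Snhg11-ASO replicate 1 stood apart: its Spearman correlation with the other libraries over the genes tested was 0.955 to 0.959, against 0.979 to 0.991 among those others. For the 5 genes, log2 fold changes that moved by over 1.5 times without it are given both ways.

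Ntng1 (ENSMUSG00000059857), the gene for netrin-G1, lies on chromosome 3, minus strand, between positions 109780040 and 110144011 of the GRCm38 (mm10) build. It spans 364 kb and has 13 annotated transcripts, 10 of them coding, whose merged exons cover 8243 bases. The counts in Control-ASO replicates 1, 2 and 3 were 1620, 1167 and 1625, and those in the Snhg11-ASO libraries were 617, 1529 and 1562. Scaled for depth these were 55.1, 34.7 and 48.2 CPM in Control-ASO and 16.2, 36.6 and 35.8 CPM in Snhg11-ASO. Snhg11-ASO replicate 1 was the lowest of the 6, and the other Snhg11-ASO libraries lay just above Control-ASO replicate 2, so the groups overlapped. The means were 46.0 ± 10.4 (SD, n = 3) and 29.5 ± 11.6 (SD, n = 3) CPM, and the log2 fold change was -0.64 (standard error 0.33, 95% interval -1.41 to 0.13). Its adjusted p was 0.670 (edgeR, unadjusted p = 0.0901), and the two-sided exact permutation test gave p = 0.3, where 3 mice against 3 cannot go below 0.1. Without Snhg11-ASO replicate 1 the log2 fold change was -0.34. Counting error was 2.48% to 4.03% of each library's value, far below the spread between mice. In bulk tissue, fewer cells that express a gene and less of its RNA per cell cannot be told apart.

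Ntng2 (ENSMUSG00000035513), the gene for netrin-G2, lies on the minus strand of chromosome 2 from 29194541 to 29253005 and has 11 annotated transcripts, 5 of them coding. It was the least counted of the 5 genes, with 389 to 599 read pairs a library. Its level was 14.89, 11.56 and 12.17 CPM in Control-ASO and 15.71, 11.96 and 11.59 CPM in Snhg11-ASO. Replicate 1 was the highest library in both groups, and the groups overlapped over nearly their whole range. The means were 12.9 ± 1.77 and 13.1 ± 2.28 CPM (SD, n = 3 each). The log2 fold change of 0.02 (standard error 0.18) had a 95% interval of -0.39 to 0.44, and its adjusted p in edgeR was 0.980. Without Snhg11-ASO replicate 1 it was -0.13. The gene shares 558 exonic bases with the non-coding gene 6530402F18Rik on the same strand, and read pairs that fell on both were not counted for either, so its counts are too low by an unknown amount.

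Per length, Ntng1 exceeded Ntng2 in 5 of the 6 libraries. Ntng1 had 3.70, 3.00 and 3.96 times the counts of Ntng2 in the controls, against 1.03, 3.06 and 3.09 times in the treated libraries. The Control-ASO level was 5.58 ± 1.26 CPM per kb of merged exons for Ntng1 and 3.23 ± 0.444 for Ntng2 (SD, n = 3 each). In Snhg11-ASO replicate 1 the order was reversed, with 1.96 CPM per kb for Ntng1 and 3.94 for Ntng2.

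Lrrc4c (ENSMUSG00000050587) encodes NGL-1, the partner of netrin-G1. It lies on the plus strand of chromosome 2 from 96318169 to 97631666, a span of 1313.5 kb of which exons make up 0.352%. The 3 longest of its 4 annotated transcripts share a coding length of 1920 bases. Its level was 94.0, 82.6 and 109 CPM in Control-ASO and 81.9, 80.8 and 81.6 CPM in Snhg11-ASO. The Snhg11-ASO libraries lay together below all controls, although Control-ASO replicate 2 was above the nearest of them by less than 1 CPM. The means were 95.1 ± 13.2 and 81.4 ± 0.566 CPM (SD, n = 3 each), and the mean SD from counting alone was 1.41 CPM in the Snhg11-ASO libraries, larger than their observed spread. The log2 fold change was -0.22 (standard error 0.11, 95% interval -0.49 to 0.04) with an adjusted p of 0.666 in edgeR, and the exact permutation test gave p = 0.1, the smallest it allows. Without Control-ASO replicate 3, the highest library, the log2 fold change was -0.12. A correction of each library for genomic span, described with the span classes, turned the log2 fold change to 0.18.

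Lrrc4 (ENSMUSG00000049939) encodes NGL-2, the partner of netrin-G2. It lies on the minus strand of chromosome 6 from 28661831 to 28831747, inside Snd1 on the opposite strand, with which it shares 0 exonic bases. Its longer transcript is a single exon of 3615 bases. Its level was 83.8, 97.7 and 89.3 CPM in Control-ASO and 90.5, 105 and 94.3 CPM in Snhg11-ASO. Each Snhg11-ASO library was above the Control-ASO library of the same replicate number, and the groups overlapped. The means were 90.3 ± 6.99 and 96.6 ± 7.54 CPM (SD, n = 3 each), and the log2 fold change was 0.10 (standard error 0.10, 95% interval -0.14 to 0.33, edgeR adjusted p = 0.823). Counts on the strand opposite to Lrrc4 were 1.86% to 3.07% of the counts on both strands together.

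Lrrc4b (ENSMUSG00000047085) encodes NGL-3, the receptor that binds LAR-type phosphatases and no netrin-G. It lies on the plus strand of chromosome 7 from 44429018 to 44463351 and, with 34.3 kb, is the shortest of the 5 genes in the genome. Its level was 103, 96.3 and 94.5 CPM in Control-ASO and 74.7, 93.4 and 85.6 CPM in Snhg11-ASO. All Snhg11-ASO libraries were below all Control-ASO libraries, with replicate 1 the lowest. The means were 98.0 ± 4.70 and 84.6 ± 9.37 CPM (SD, n = 3 each). The log2 fold change was -0.21 (standard error 0.10, 95% interval -0.46 to 0.04) with an adjusted p of 0.660 in edgeR, and the exact permutation test gave p = 0.1. Without Snhg11-ASO replicate 1 it was -0.13, and the adjusted p in any of the 20 alternatives was 0.533 or more.

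Over the 6 libraries, the highest Pearson r of log2 CPM between any pair of these genes was the 0.92 of Ntng1 with Lrrc4b, a description over libraries that share groups and depth. Both were lowest in Snhg11-ASO replicate 1 and highest in Control-ASO replicate 1. The ranking rested on the former library: over the 5 others r was 0.68 for this pair, 0.79 for Ntng1 with Lrrc4c and 0.87 for Ntng1 with Ntng2, which over all 6 was -0.38. The promoters of Ntng1 and Lrrc4b are shown as those of the pair with the highest r over all 6 libraries. Each is 250 bases before to 50 after the RefSeq start on GRCm38.p6, printed 5′ to 3′ on the strand of the gene, and capitals mark the only match found to the motifs listed after them.

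Ntng1, chr3:110143423-110143722, minus strand: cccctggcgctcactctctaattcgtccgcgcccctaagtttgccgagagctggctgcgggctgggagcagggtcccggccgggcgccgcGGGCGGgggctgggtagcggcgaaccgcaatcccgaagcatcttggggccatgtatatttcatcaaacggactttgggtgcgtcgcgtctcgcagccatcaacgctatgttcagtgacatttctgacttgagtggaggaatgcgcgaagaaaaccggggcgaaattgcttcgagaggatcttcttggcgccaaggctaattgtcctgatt

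Lrrc4b, chr7:44442237-44442536, plus strand: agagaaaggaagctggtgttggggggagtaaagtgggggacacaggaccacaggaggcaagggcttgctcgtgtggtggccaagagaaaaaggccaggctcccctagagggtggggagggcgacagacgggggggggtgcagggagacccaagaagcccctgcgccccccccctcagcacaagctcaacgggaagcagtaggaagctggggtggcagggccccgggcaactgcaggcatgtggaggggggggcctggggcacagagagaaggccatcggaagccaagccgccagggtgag

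The Ntng1 promoter held 28 CpG dinucleotides and 59.7% G and C, and 85.8% of 32851 mouse promoters of this length held fewer CpGs. Lrrc4b held 8, close to the median of 7, at 66.3% G and C. The promoters of Ntng2, Lrrc4 and Lrrc4c held 6, 10 and 6. A GC box (GGGCGG, searched like the others on both strands) was found in Ntng1 alone, at position -160 from the start, and in 35.7% of all promoters. A CCAAT box was found at -95 in Ntng2 and at -126 in Lrrc4, and in 37.4% of all promoters. TATAAA, the cyclic AMP response element TGACGTCA and the E-box CACGTG were found in none of the 5 and in 13.6%, 1.79% and 7.15% of all. These are matches of letters only.

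Compared per length, the 3 receptors were counted at higher levels than the netrin-Gs in every library. In Control-ASO, Lrrc4b stood at 33.5 ± 1.60 CPM per kb of merged exons, Lrrc4 at 22.6 ± 1.75 and Lrrc4c at 20.6 ± 2.85 (SD, n = 3 each). Lrrc4b lay above the next receptor in all 3 control libraries, while Lrrc4 and Lrrc4c overlapped, from 21.0 to 24.5 and from 17.9 to 23.5. In Snhg11-ASO the levels were 28.9 ± 3.20 for Lrrc4b, 24.2 ± 1.89 for Lrrc4 and 17.6 ± 0.122 for Lrrc4c. Across those libraries Lrrc4b reached down to 25.5 and Lrrc4 up to 26.3. Within each of them Lrrc4b was still the higher, at 25.5 against 22.6, 31.9 against 26.3 and 29.2 against 23.6. When length was taken as that of the longest coding transcript, the Control-ASO means were 35.9, 26.1 and 25.0 for Lrrc4b, Lrrc4c and Lrrc4, so that the order of the last pair turned. On that scale Ntng1 (6.21 to 9.86) and Ntng2 (6.15 to 7.92) also overlapped.

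**Figure D2:**
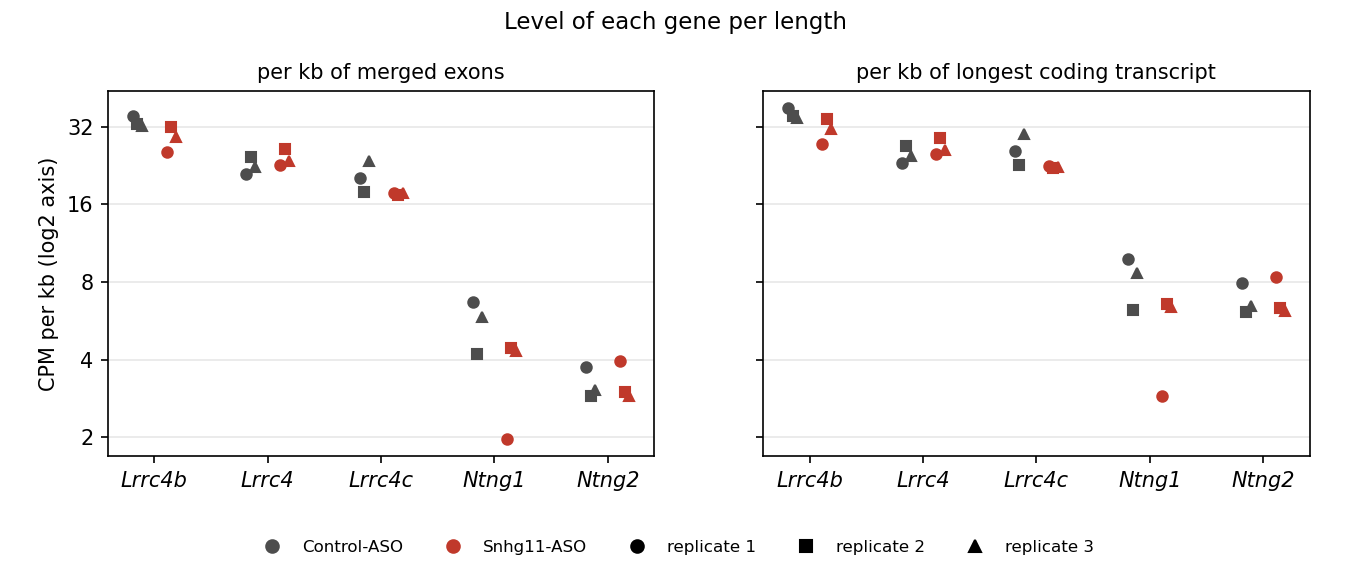
CPM per kb (log2 axis) of each gene in Control-ASO (grey) and Snhg11-ASO (red) libraries, with length taken as merged exons (left) or the longest coding transcript (right). The receptors lie between 17.5 and 35.3 on the left, above the netrin-Gs at 1.96 to 6.68.

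The balance of each ligand with its own receptor was read within a library, as the log2 level per kb of the netrin-G minus that of its NGL, with no test. For Ntng1 against Lrrc4c it was -1.60, -2.08 and -2.01 in the controls and -3.17, -1.98 and -2.02 in the treated libraries. Snhg11-ASO replicate 1 was far below the other 5 libraries, and the other Snhg11-ASO libraries lay within the range of the controls. The group means differed by -0.49, and by -0.10 without that library. For Ntng2 against Lrrc4 it was -2.49, -3.08 and -2.87 in the controls and -2.52, -3.13 and -3.02 in the treated libraries, a difference of -0.08 between overlapping groups and of -0.26 without Snhg11-ASO replicate 1.

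Genes that work beside the netrin-Gs and NGLs were compared in 4 lists, and 0 genes of any list passed the adjusted threshold in edgeR. For scale, 9653 of all 19969 genes tested had a log2 fold change below 0. At an unadjusted p under 0.05 in edgeR, 885 of all genes were lower and 734 higher. The receptors that bind NGL-3 are the phosphatases Ptprd, Ptprs and Ptprf. All 3 log2 fold changes were below 0, with a median of -0.13, and 1 had an unadjusted p under 0.05. Ptprd was at 252, 248 and 287 CPM in Control-ASO and at 117, 190 and 162 CPM in Snhg11-ASO, without overlap. On the log2 scale the difference was -0.75 ± 0.18 (standard error), with an adjusted p of 0.464 in edgeR and of 0.0271 in DESeq2, which made it the 1 gene of the 4 lists that DESeq2 called. Ptprs was at 384 to 488 CPM in Control-ASO and 371 to 413 CPM in Snhg11-ASO, with a log2 fold change of -0.13.

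The tails of NGLs end in a motif for the scaffolds of the PSD-95 family, which anchor receptors in the postsynaptic density. Of 6 scaffolds and other tail partners, 5 had a log2 fold change below 0, 2 had an unadjusted p under 0.05, and the median was -0.19. Dlg2, the gene for the scaffold PSD-93, was at 396, 389 and 378 CPM in Control-ASO and at 293, 339 and 269 CPM in Snhg11-ASO. Dlg1, the gene for SAP97, was at 114, 103 and 151 CPM in Control-ASO and at 98.9, 95.2 and 91.9 CPM in Snhg11-ASO. Neither gene's groups overlapped, with log2 fold changes of -0.37 and -0.36 and adjusted p of 0.512 and 0.596 in edgeR. Dlg4, the gene for PSD-95 itself, had a log2 fold change of 0.09 (95% interval -0.16 to 0.35) and was named for its role after its value was seen.

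Other leucine-rich repeat adhesion genes of the synapse (the LRRTM, LRFN, SLITRK, LINGO and ELFN families) showed no common direction. Of 21 genes, 11 were below 0 and 10 above, with a median of -0.02. The 2 with an unadjusted p under 0.05 were both lower. Lingo2 was at 35.2 to 48.8 CPM in Control-ASO and 28.4 to 36.1 CPM in Snhg11-ASO, with a log2 fold change of -0.48 (adjusted p = 0.551, edgeR). Lrfn5, which like the NGL-3 gene encodes a partner of LAR-type phosphatases, was at 91.4 to 101 CPM in Control-ASO and at 71.0 to 84.9 CPM in Snhg11-ASO, with a log2 fold change of -0.27 (adjusted p = 0.574, edgeR).

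The classical netrins and their receptors divided evenly, 5 below and 5 above 0 of 10 genes, with a median of -0.03. Unc5d, a netrin receptor of the repulsive kind, was at 60.4, 34.3 and 45.4 CPM in Control-ASO and at 28.3, 33.3 and 24.7 CPM in Snhg11-ASO. The groups did not overlap, and its log2 fold change of -0.70 had a standard error of 0.22 (adjusted p = 0.533, edgeR). Unc5b, of the same family, was at 16.42, 19.77 and 11.99 CPM in Control-ASO and at 20.7, 20.8 and 20.3 CPM in Snhg11-ASO. It was higher without overlap, with a log2 fold change of 0.36 (adjusted p = 0.672, edgeR). Over the 40 genes of the 4 lists, 6 were lower without overlap (15%, beside 7.70% of all genes tested) and 2 higher (5%, beside 7.73%).

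**Figure D3:**
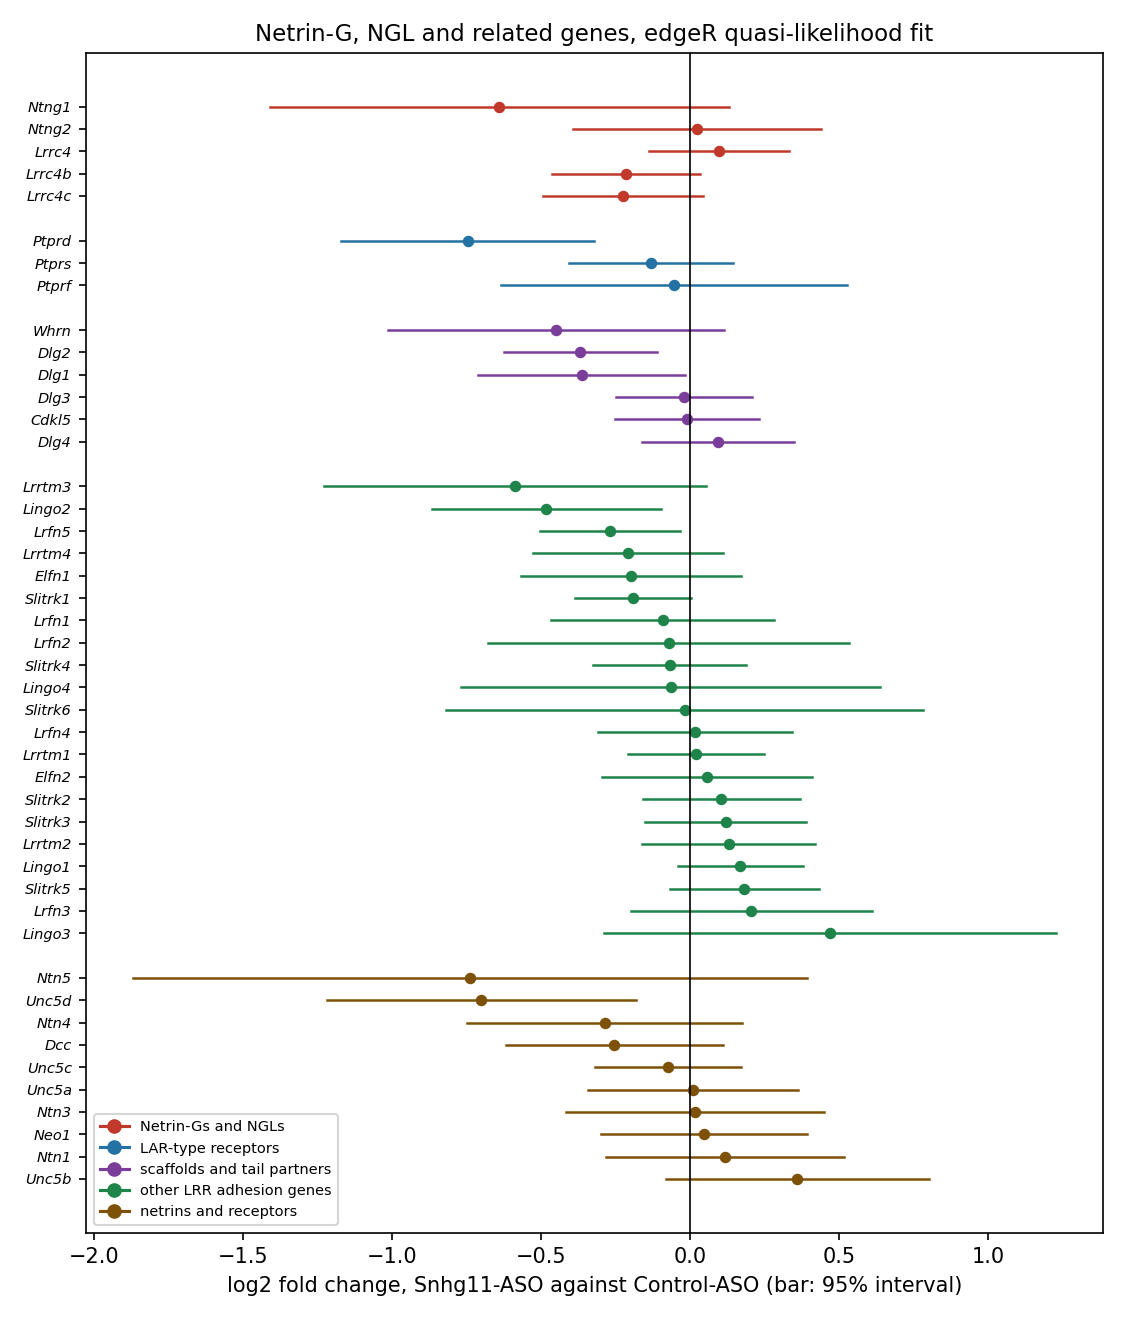
Log2 fold change of Snhg11-ASO against Control-ASO (x axis) with 95% intervals from edgeR's quasi-likelihood fit for the netrin-G and NGL genes and the 4 lists (rows, coloured by list). All 5 netrin-G and NGL intervals include 0, and Ptprd and Unc5d lie furthest left among genes whose intervals do not.

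The span of a gene in the genome moved with its fold change in these libraries. Of the 57 genes tested that span over 1000 kb, 54 had a log2 fold change below 0 and the median was -0.48, against 0.02 over the 15163 genes under 50 kb. Lrrc4c belongs to the first class, and 45 of the class had a lower log2 fold change than its -0.22 while 11 had a higher one. The quartiles of that class were -0.76 and -0.31, so Lrrc4c lay above the upper one. Ntng1 belongs to the 929 genes of 200 to 1000 kb, whose median was -0.16, and 77 of these had a log2 fold change lower than its -0.64. Without Snhg11-ASO replicate 1 it was at -0.34, and 237 of the 933 genes then in the class were lower. With offsets that take out each library's trend with span, Ntng1 was at -0.45 and Lrrc4c at 0.18 (standard error 0.14, adjusted p = 0.765 in edgeR). Lrrc4b, under 50 kb in a class with a median of 0.02, was at -0.23 with these offsets. Of the list genes named above, Ptprd, Dlg2 and Lingo2 span 2271, 1973 and 1245 kb. Unc5d, Lrfn5 and Dlg1 span 573, 335 and 212 kb, in the class of 200 to 1000 kb, where 73.4% of genes were below 0. Unc5b, Ptprs and Dlg4 span 69.0, 64.1 and 30.6 kb. The shares over all genes set beside the lists were not matched for span.

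**Figure D4:**
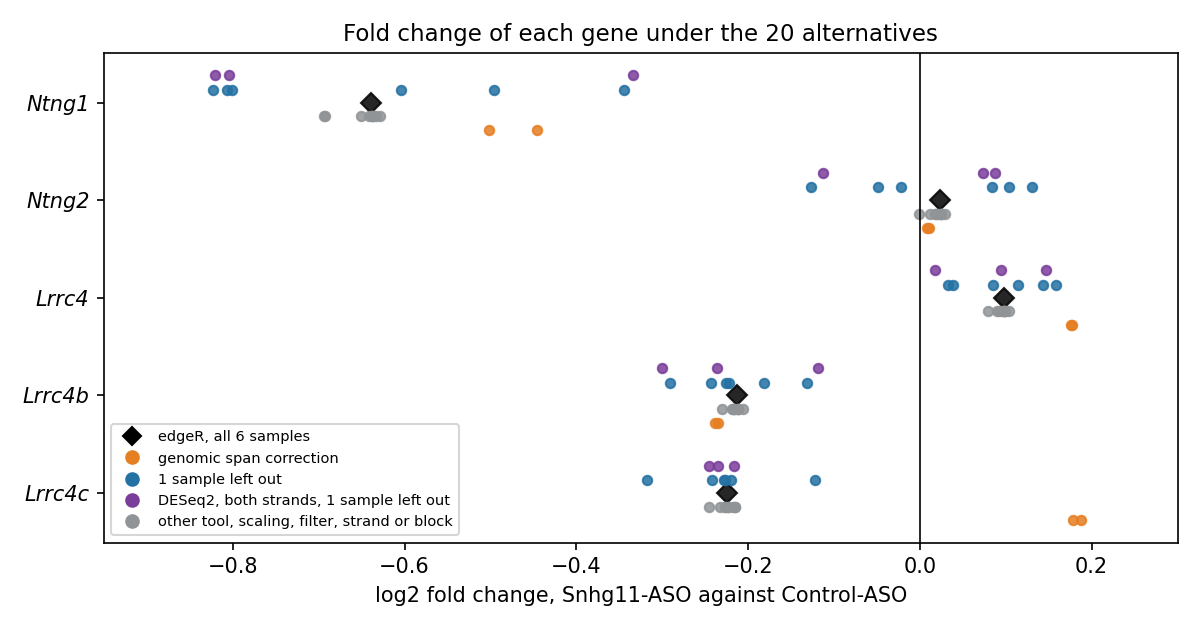
Log2 fold change of each gene (x axis) in edgeR on all 6 samples (diamond) and under the 20 alternatives (points, coloured by kind). Ntng1, Lrrc4 and Lrrc4b keep their sign throughout, Ntng2 lies around 0, and Lrrc4c is at 0.18 and 0.19 after span correction.

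Markers of the cell types and regions that the dissection could hold were read beside these values, and their part in the results was not tested. Every marker was counted in at least 1 library. The summed level of 6 neocortex markers was 93.8 to 137 CPM in Control-ASO and 79.6 to 89.0 CPM in Snhg11-ASO, without overlap and with 5 of 6 markers lower. Control-ASO replicate 3 had the highest neocortex sum, as it had the highest Lrrc4c, and the defining marker Tbr1 was at 34.2 CPM there and at 16.4 to 23.7 CPM in the others. The sum of 7 interneuron markers, led by Gad1 and Gad2, was 429 to 470 CPM in Control-ASO and 357 to 419 CPM in Snhg11-ASO, also without overlap. Of these markers 6 were lower, and Npy was higher with a log2 fold change of 0.24. Taken by itself, Gad1 did not overlap between the groups, but Gad2 did (103 to 123 and 102 to 113 CPM). Snhg11-ASO replicate 1, the library lowest in Ntng1 and Lrrc4b, also had the lowest sum of 5 microglia markers, 74.6 CPM beside 160 to 278 CPM in the other libraries. Across those other libraries the order was the inverse, with Ntng1 lower wherever the microglia sum was higher. It fell from 55.1 CPM in Control-ASO replicate 1 (sum 160 CPM) to 34.7 CPM in Control-ASO replicate 2 (sum 278 CPM). The sums of Snhg11-ASO replicate 1 were also the lowest for oligodendrocyte (1176 CPM) and CA1 markers (264 CPM) and the highest for CA2 and CA3 (190 CPM) and habenula markers (6.98 CPM). Single markers differed in direction. Gpr151 alone gave 5.27 CPM of the habenula sum, while Tac2 (1.05 CPM) and Gng8 (0.131 CPM) were lowest in this library. Among CA1 markers, Mpped1 was lowest there (91.8 CPM) and Pou3f1 highest (32.7 CPM).

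The remaining lists overlapped between the groups. The sums in Control-ASO and Snhg11-ASO were 3623 to 4040 and 3321 to 3703 CPM for 5 neuron markers, 240 to 317 and 286 to 359 CPM for 6 dentate granule cell markers, 294 to 341 and 264 to 348 CPM for 4 CA1 markers, and 133 to 184 and 170 to 190 CPM for 7 CA2 and CA3 markers. The markers of the labelled tissue were thus present in every library. Outside it, 9 thalamus markers summed to 81.4 to 105 and 98.2 to 107 CPM, and 6 habenula markers to 2.82 to 3.81 and 3.54 to 6.98 CPM. Choroid plexus genes, led by Ttr, varied most, from 36.5 to 1899 and from 68.2 to 1301 CPM. Astrocyte sums were 1130 to 3016 and 1493 to 3578 CPM, oligodendrocyte sums 1301 to 2377 and 1176 to 2891 CPM, and endothelial sums 91.2 to 133 and 96.0 to 126 CPM.

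**Figure D5:**
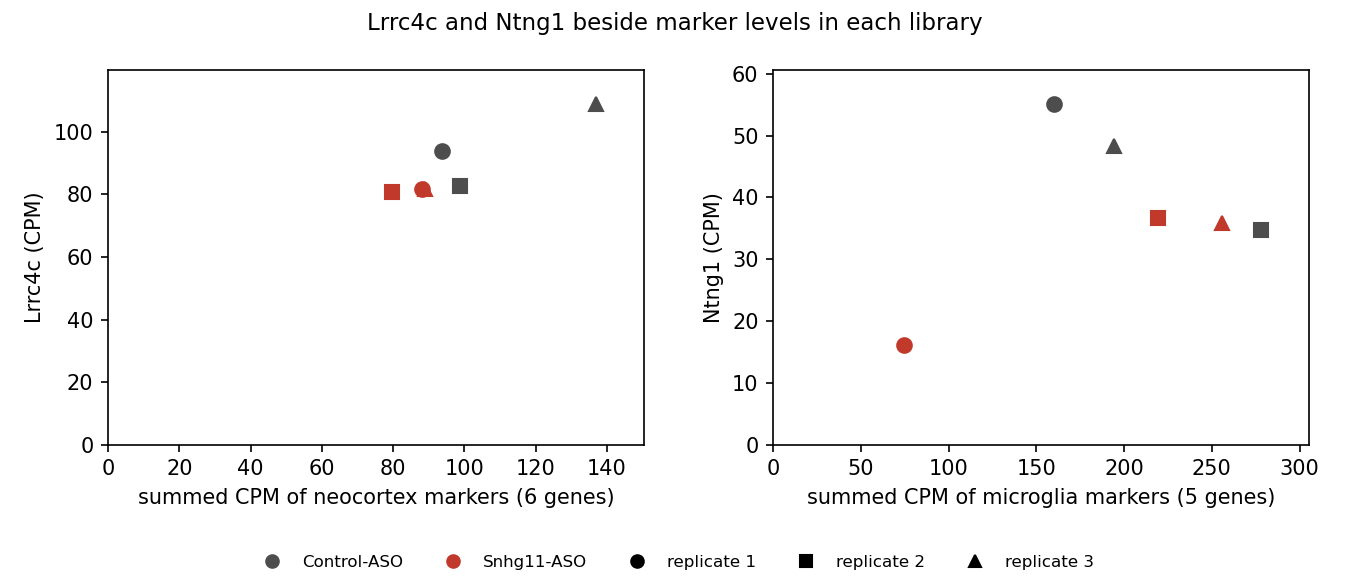
Lrrc4c against the summed CPM of 6 neocortex markers (left) and Ntng1 against that of 5 microglia markers (right), 1 point per library, Control-ASO grey and Snhg11-ASO red, axes from 0. Control-ASO replicate 3 is highest on both axes at left (137 and 109 CPM), and Snhg11-ASO replicate 1 is lowest on both at right (74.6 and 16.2 CPM). Among the other libraries at right, Ntng1 falls as the microglia sum rises.

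For each gene, the protein-coding genes with the most similar pattern over the 6 libraries were sought among 9511 genes of at least 10 CPM. For Ntng1 these were Zfp512, Ndufaf5 and Dgkq (Pearson r of log2 CPM from 0.990 to 0.995), and each was lowest in Snhg11-ASO replicate 1. For Ntng2 they were Rnf8, Peg10 and Megf11 (0.994 to 0.996), all highest in replicate 1 of both groups. For Lrrc4 they were Arhgef4 and Csnk1g2 (0.990 to 0.998), and for Lrrc4b Nrbp2, Tln2 and Ints4 (0.986 to 0.989). Those for Lrrc4c were the interneuron peptide gene Vip and Fnbp1l (0.983 to 0.985), both highest in Control-ASO replicate 3. Without Snhg11-ASO replicate 1 the values were 0.949 to 0.980 for the genes named with Ntng1 and 0.953 to 0.975 for those named with Lrrc4b. With 9511 genes and 6 libraries such values describe likeness only. Among the 5 genes themselves r ran from -0.64 (Lrrc4 with Ntng2) to 0.92, and netrin-G1's gene and Lrrc4c were at 0.59.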

How the data were processed

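Gene counts were deposited for each of 6 samples. The authors aligned paired reads from stranded, ribo-depleted libraries to GRCm38 (mm10) with STAR 2.5.2a, per the submitters' processing notes, and deposited the raw counts of read pairs, neither normalized nor pooled. Rsubread is named in the study's methods, whereas the deposited counts are those STAR writes, without pairs that map to several places or to exons of several genes. Summary lines that name no gene held 43.5% to 51.4% of pairs and were left out. Counts of the reverse strand were used, which held 96.2% to 96.8% of strand-specific gene counts. GENCODE M21 named 55141 of 55401 genes.

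Genes were filtered with filterByExpr (minimum count 10), scaled with TMM factors and compared with edgeR's quasi-likelihood test at a Benjamini-Hochberg adjusted p of 0.05 (R 4.3.3, edgeR 4.0.16). Log2 CPM used a prior count of 2. The biological coefficient of variation was 0.266. The test was tried on simulated counts first. Exact permutation tests were two-sided. DESeq2 1.42.0, limma-voom (limma 3.58.1), other scalings and filters, both strands, offsets for genomic span (lowess) and leaving out samples were alternatives. Promoters came from RefSeq (GRCm38.p6), with all 5 genes matched.

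The genes and lists were chosen with earlier results of these data known. Named from each list were genes past the threshold, otherwise the 2 with the smallest p, and for each gene the 3 most similar in pattern, of which some are not reported here. Deviations from the group means correlated at 0.297, 0.179 and 0.103 between samples numbered 1, 2 and 3, each over 0.1. Control-ASO replicate 2 correlated at 0.188 with Snhg11-ASO replicate 3, above the value of either with its own number. These values do not establish that the numbers pair the samples. A term for the replicate number (the replicate block) entered only alternative fits, and the main fit and the permutation tests took the samples as unpaired. The block rests on these values, since the sources used here do not state what the numbers stand for. The study's methods leave out 1 unnamed Snhg11-ASO sample. Here all 6 were kept. Protein sequences were not used here.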

Additional observations from a re-analysis of the deposited data

How the results depend on the processing

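Over 20 alternatives 0 of the 5 genes passed the adjusted threshold, with an adjusted p of 0.364 to 0.979 for Ntng1, 0.795 to 0.999 for Ntng2, 0.644 to 0.985 for Lrrc4, 0.533 to 0.979 for Lrrc4b and 0.521 to 0.979 for Lrrc4c. Ntng1, Lrrc4 and Lrrc4b kept their direction in all 20, at -0.82 to -0.33, 0.02 to 0.18 and -0.30 to -0.12 on the log2 scale. Ntng2 turned negative in 5: -0.0011 with upper-quartile factors, -0.11 with DESeq2 on both strands without Snhg11-ASO replicate 1, and -0.13 to 0.13 when 1 sample was left out. Lrrc4c turned positive with the genomic span correction, to 0.18, and to 0.19 with the replicate block added; leaving out 1 sample it ran from -0.32 to -0.12. The replicate block alone gave -0.69 for Ntng1, 0.02 for Ntng2, 0.10 for Lrrc4, -0.22 for Lrrc4b and -0.22 for Lrrc4c, called 0 genes and changed no call. At an unadjusted p under 0.05, Ntng1 passed with no filter (0.0494) and with DESeq2 on both strands without Snhg11-ASO replicate 2 (0.0297) or 3 (0.0328), Lrrc4c in edgeR without Control-ASO replicate 2 (0.0266), and Lrrc4b without Snhg11-ASO replicate 2 (0.0430).

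Over all genes, 258 were called by DESeq2, and 322, 281 and 206 by DESeq2 on both strands without Snhg11-ASO replicate 1, 2 and 3, against 0 in edgeR, 0 in limma-voom and 0 to 2 in edgeR with 1 sample left out. In the same 4 settings Snhg11 passed, at -2.12, -2.55, -1.96 and -1.99, and 1 of the LAR-type receptors was called in the first 3 but 0 without replicate 3. Of the scaffolds and tail partners 1 was called without Snhg11-ASO replicate 2. The cause of these differences was not tested.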
